A study of Saccharomyces cerevisiae with 4 samples.

Results

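The genes described here are 9 genes of arginine metabolism in budding yeast (Saccharomyces cerevisiae), 7 for synthesis (ARG1, ARG3, ARG4, ARG5,6, ARG7, ARG8 and CPA1) and 2 for breakdown (CAR1 and CAR2), of 6659 genes measured. They were chosen by function, and all 9 were found in the deposited table by systematic name. Total RNA without most ribosomal RNA was sequenced for 4 haploid strains, all labelled as BY4741/2 background and his- ura- leu-, taken at mid-log growth in YPD, which is rich medium containing glucose. They comprised a wild type (WT), snf2∆ with SNF2 replaced by the NatMX marker, ume6∆ with UME6 replaced by KanMX, and ume6∆snf2∆ with both replacements, called the double deletion below. Snf2 is the motor of the Swi/Snf complex, which moves nucleosomes, and Ume6 is a DNA-binding repressor that recruits a histone deacetylase. Each strain gave 1 library, so no difference has a replicate check, no p-value is given, and a difference compares these libraries rather than the strains.

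Arginine is built from glutamate. Acetylated intermediates are converted to ornithine in the mitochondrion, and ornithine is then exported and joined with carbamoyl phosphate and aspartate in the cytosol. The synthesis genes are activated by Gcn4, the general regulator of amino acid synthesis. Some of them are also repressed in the presence of arginine by the ArgR proteins with Mcm1, which activate the breakdown genes as well. CAR1 encodes arginase, which splits arginine to ornithine and urea, and CAR2 encodes ornithine transaminase, which starts the conversion of ornithine toward proline and glutamate. Both breakdown genes are known targets of repression by Ume6, which binds a sequence named URS1.

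The sequences before the coding starts were searched for the cores of the URS1 and Gcn4 sites, but not for ArgR or Mcm1 sites. The 300 bases upstream are printed for CAR1, CAR2 and ARG5,6, the breakdown pair and the synthesis gene with the widest range over the libraries. They are from the RefSeq R64 assembly, the one behind sacCer3, and all 3 lie on the plus strand, at chrXVI:339644-339943 for CAR1, chrXII:1012201-1012500 for CAR2 and chrV:295110-295409 for ARG5,6. Capitals mark matches to TAGCCGCC, the URS1 core, and to TGACTC, the core of the Gcn4 site, and in CAR2 also the nearest sequence to the URS1 core.
CAR1: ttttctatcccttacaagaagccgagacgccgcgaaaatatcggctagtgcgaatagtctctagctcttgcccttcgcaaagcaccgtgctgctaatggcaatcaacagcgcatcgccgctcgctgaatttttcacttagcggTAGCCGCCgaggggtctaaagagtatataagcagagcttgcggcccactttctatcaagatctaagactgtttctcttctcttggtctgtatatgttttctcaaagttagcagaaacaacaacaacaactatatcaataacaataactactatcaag
CAR2: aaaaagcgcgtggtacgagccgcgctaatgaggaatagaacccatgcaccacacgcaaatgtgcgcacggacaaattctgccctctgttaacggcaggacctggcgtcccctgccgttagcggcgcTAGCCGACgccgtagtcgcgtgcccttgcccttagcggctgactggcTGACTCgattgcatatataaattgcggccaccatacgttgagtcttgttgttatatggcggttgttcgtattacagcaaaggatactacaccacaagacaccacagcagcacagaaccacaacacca
ARG5,6: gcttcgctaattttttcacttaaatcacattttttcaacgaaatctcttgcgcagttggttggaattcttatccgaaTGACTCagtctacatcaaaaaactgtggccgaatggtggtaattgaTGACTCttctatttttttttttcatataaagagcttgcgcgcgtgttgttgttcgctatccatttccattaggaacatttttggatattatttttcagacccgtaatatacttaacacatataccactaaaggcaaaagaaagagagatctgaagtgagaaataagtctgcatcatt

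The URS1 core was searched on both strands in the 500 bases before the coding start. CAR1 held it from -157 to -150, on the strand of the gene, while 2.33% of 6000 such windows over protein-coding genes held it. CAR2 did not hold these letters. Its nearest sequence was TAGCCGAC at -174, which differs by C7A, with positions counted from 1 at the 5′ end of the motif. Windows with the core at no more than 1 mismatch made up 14.6% of all, so such a match is common. None of the 7 synthesis genes held the shorter GCCGCC, which lies within the URS1 core and was present in 9.57% of windows. Most windows thus lack it, and its absence does not set these genes apart. A match of letters is a description of the sequence and does not show binding.

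The Gcn4 core was present before all 7 synthesis genes and before CAR1 and CAR2, against 12.7% of all windows. The 7 synthesis genes held 11 matches, 10 of them on the strand of the gene, and 4 genes held a pair, which 1.43% of all windows did. CAR1 had its match at -439 and CAR2 at -127. The sites nearest the coding start of each synthesis gene are printed with 10 bases on each side to show how they differ around the shared letters. In ARG1 this match is on the opposite strand, so its letters appear as GAGTCA.
ARG1, -274: ccgtatggaaGAGTCAtttaaaggca
ARG3, -314: ggtcacgtcgTGACTCatatgctttc
ARG4, -179: agtagatgaaTGACTCactttttgga
ARG5,6, -177: tggtaattgaTGACTCttctattttt
ARG7, -152: acaggtaggaTGACTCactgcgtaat
ARG8, -180: gctcgctatgTGACTCacttaaagta
CPA1, -295: tttcttttctTGACTCgtcgtttctt

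**Figure D1:**
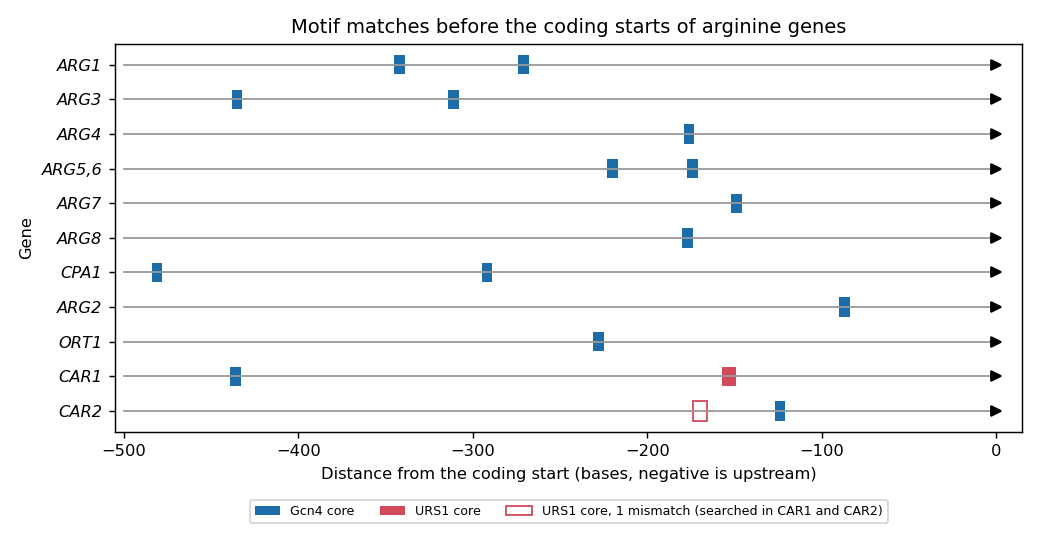
Matches to the Gcn4 core (blue), the URS1 core (red) and the URS1 core with 1 mismatch (open red, searched only in CAR1 and CAR2) in the 500 bases before the coding start of each gene, with distance in bases on the horizontal axis. Every gene shown holds at least 1 Gcn4 core, and CAR1 alone among them holds the full URS1 core, from -157 to -150.

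Expression is given as RPKM, reads per kilobase of gene after scaling for library depth. The values were scaled to 27.7 M reads in WT, 25.7 M in snf2∆, 30.2 M in ume6∆ and 17.4 M in the double deletion, and reads per gene could be recovered from them. The 9 genes had between 399 and 43355 reads in a library. Intervals below are 95% intervals from these reads. They cover counting error only, and may be too narrow even for that, since PCR copies are not independent molecules. Log2 changes are differences of log2(RPKM + 1), and a gene is called higher or lower at 2-fold on that scale. The library labels held for the deleted genes, since SNF2 was at 67.9 RPKM in WT and 36.9 in ume6∆ against 0.107 and 0.157 without it, and UME6 at 34.6 and 19.6 against 0.0132 and 0.137. Libraries without SNF2 also differed in mating-type genes. With SNF2 present, the summed level of 5 a-cell genes was 961 RPKM (WT) and 889 RPKM (ume6∆), and without it 21.8 RPKM (snf2∆) and 63.4 RPKM (double deletion). The sum of 4 alpha-cell genes was 41.6 and 25.7 RPKM with SNF2 against 2819 and 8265 without it, and no marker was at 0 in any library. MET17 and LYS2 set the double deletion apart, at 2350.2 and 0.385 RPKM against 0.817 to 1.12 and 91.0 to 303 in the other libraries. As background, BY4741 is an a strain that lacks MET17 and BY4742 an alpha strain that lacks LYS2, so the strains may not be matched beyond the deleted genes. URA3 and LEU2 were at no more than 0.105 RPKM in any library, and HIS3 was at 82.7 to 310.4 RPKM in all 4. The HIS3 allele usual in BY strains lacks an internal part of the gene only, and the labels do not say which HIS gene is meant. In snf2∆ over WT and in the double deletion over WT or ume6∆, the absence of SNF2 and the difference in mating-type genes cannot be told apart. WT and ume6∆ were both high in a-cell and low in alpha-cell genes, while the double deletion differed from every other library in MET17 and LYS2. The part of these differences in the results below was not tested.

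The synthesis genes ranged widely in level within WT. Per kilobase, ARG1 (373 RPKM), CPA1 (364), ARG4 (339), ARG7 (213), ARG5,6 (190.5), ARG8 (106) and ARG3 (56.6) followed in that order, above CAR2 (24.2) and CAR1 (18.1). Each step in this order had an interval above 1, but the narrowest, ARG1 over CPA1 at a ratio of 1.03, only just (interval 1.002 to 1.05). In RNA from whole cultures, fewer cells with a message and less message per cell cannot be told apart. ARG1 stood above 94.0% of all genes in WT and CAR1 above 21.9%. The summed level of the 7 synthesis genes was 38.9 times that of the breakdown pair in WT, 13.8 times in snf2∆, 5.25 times in the double deletion and 1.22 times in ume6∆. In ume6∆ CAR1 and CAR2 were the highest of the 9 genes, and ARG3 and ARG8 the lowest, with a ratio of ARG8 to ARG3 of 1.06 (interval 0.975 to 1.15) that counting error covers.

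**Figure D2:**
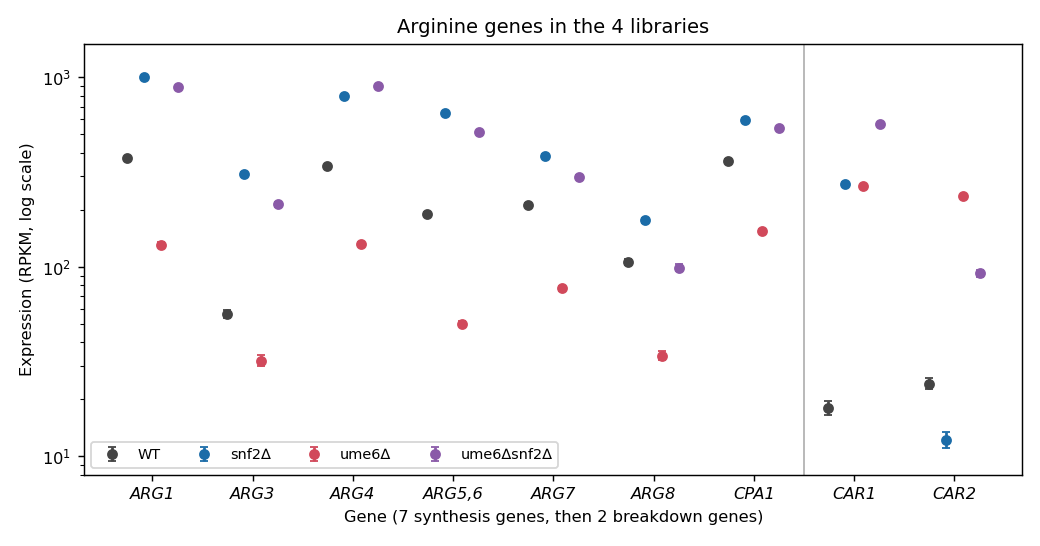
RPKM (log axis) of the 9 genes in the 4 libraries, 1 point per library, with bars for exact 95% Poisson intervals that are mostly smaller than the points. Each of the 7 synthesis genes is lowest in ume6∆, whereas CAR1 is lowest in WT and CAR2 in snf2∆.

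All 7 synthesis genes had the same lowest library. ume6∆ was lowest for 7 of 7, as it was for 47.8% of the 6520 genes kept with a mean of at least 1 RPKM. In 6 of the 7 snf2∆ was also the highest, an order found in 9.62% of genes, and ARG4 was the exception with its highest level in the double deletion. CPA1 spanned the smallest range, with 3.86 times between its highest and lowest library, and ARG5,6 the widest with 13.0 times.

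Among the genes of the acetylated cycle, ARG5,6 (YER069W, chrV:295410-298001) encodes a precursor cut into acetylglutamate kinase and acetylglutamyl-phosphate reductase, the second and the third enzymes of the route. It was at 190.5 RPKM in WT, 652 in snf2∆, 50.1 in ume6∆ and 516 in the double deletion. Both libraries without SNF2 were thus high and ume6∆ low, with 3914 reads there against 13687 in WT. ARG8 (YOL140W, chrXV:58759-60030), acetylornithine aminotransferase, was at 106, 176, 33.9 and 99.2 RPKM in the same order, and its double deletion library was near WT with a ratio of 0.935 (interval 0.887 to 0.986). ARG7 (YMR062C, chrXIII:395054-396379), ornithine acetyltransferase, which regenerates the acetyl donor, was at 213, 386, 77.0 and 299.6 RPKM. For ARG7 the double deletion lay between WT and snf2∆.

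Carbamoyl phosphate for arginine is made by a synthetase whose small subunit is encoded by CPA1 (YOR303W, chrXV:882899-884134). CPA1 was at 364 RPKM in WT, 599 in snf2∆, 155 in ume6∆ and 540.1 in the double deletion. It was highest in snf2∆ and lowest in ume6∆, and the double deletion lay between WT and snf2∆. CPA1 is also controlled in its translation by a peptide encoded in the leader of its message, which these data do not measure.

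The cytosolic end of the route begins with ARG3 (YJL088W, chrX:268799-269815), ornithine carbamoyltransferase. It was at 56.6 RPKM in WT, 308 in snf2∆, 32.0 in ume6∆ and 214 in the double deletion. ARG3 was the lowest synthesis gene in WT and had the largest ratio of snf2∆ to WT among them, at 5.45 (interval 5.16 to 5.75). ARG1 (YOL058W, chrXV:219211-220473), argininosuccinate synthetase, was at 373, 1009.6, 131 and 889 RPKM in the same order of libraries. ARG4 (YHR018C, chrVIII:140011-141402), argininosuccinate lyase, which releases arginine, was at 339, 796, 132 and 901 RPKM. ARG1 and ARG4 were close to each other in ume6∆, with a ratio of ARG4 to ARG1 of 1.01 (interval 0.971 to 1.05), and again in the double deletion at 1.01 (interval 0.995 to 1.03), while ARG1 was 1.27 times ARG4 in snf2∆.

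The breakdown genes did not share a pattern. CAR1 (YPL111W, chrXVI:339944-340945) was at 18.1 RPKM in WT, 273 in snf2∆, 266 in ume6∆ and 566 in the double deletion. Every deletion library was thus far above WT, the single deletions were near each other, and the double deletion was the highest. CAR2 (YLR438W, chrXII:1012501-1013775) was at 24.2, 12.2, 236 and 92.7 RPKM in the same order. CAR2 was high wherever UME6 was missing and lower wherever SNF2 was missing. The ratio of CAR1 to CAR2 was 0.747 in WT (interval 0.668 to 0.835) and 1.13 in ume6∆ (interval 1.09 to 1.16), but 22.4 in snf2∆ (interval 20.2 to 24.8) and 6.10 in the double deletion (interval 5.82 to 6.40). The pair was therefore near balance in both libraries with SNF2 and uneven in both without it.

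The comparison of snf2∆ with WT asks which genes differ without Swi/Snf activity. Synthesis genes were higher throughout, 4 of 7 by at least 2-fold and 0 lower, with a median log2 change of 1.23 against -0.11 for all genes. Over all genes kept, 3.31% were called higher and 7.96% lower. ARG3 had the largest log2 change at 2.42, followed by ARG5,6 at 1.77, ARG1 at 1.43 and ARG4 at 1.23. ARG7 at 0.86, ARG8 at 0.72 and CPA1 at 0.72 did not reach 2-fold. CAR1 had a log2 change of 3.84, a ratio of 15.1 (interval 13.8 to 16.6). CAR2 had a log2 change of -0.93, just short of the call, with a ratio of 0.504 (interval 0.447 to 0.569). This comparison also carries the difference in a-cell and alpha-cell genes given above.

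The comparison of ume6∆ with WT asks which genes differ without the Ume6 repressor, and both libraries had high a-cell and low alpha-cell genes. The breakdown pair was higher and the synthesis genes lower. CAR1 had a log2 change of 3.81 (ratio 14.7, interval 13.4 to 16.1) and CAR2 of 3.23 (ratio 9.74, interval 9.08 to 10.5), so 2 of 9 genes were called higher, against 4.59% of all genes. Of the 7 synthesis genes 6 were called lower and 0 higher, where 15.2% of all genes were lower. Their median log2 change was -1.45 against -0.30 for all genes. ARG5,6 had the lowest value at -1.91, then ARG8 at -1.62, ARG1 at -1.50, ARG7 at -1.45, ARG4 at -1.35 and CPA1 at -1.22, while ARG3 at -0.80 was not called. Scaling by median ratios, which moves the median of all genes to about 0, left 5 synthesis genes called lower, with CPA1 at -0.92. With that scaling 8.36% of all genes were called lower.

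**Figure D3:**
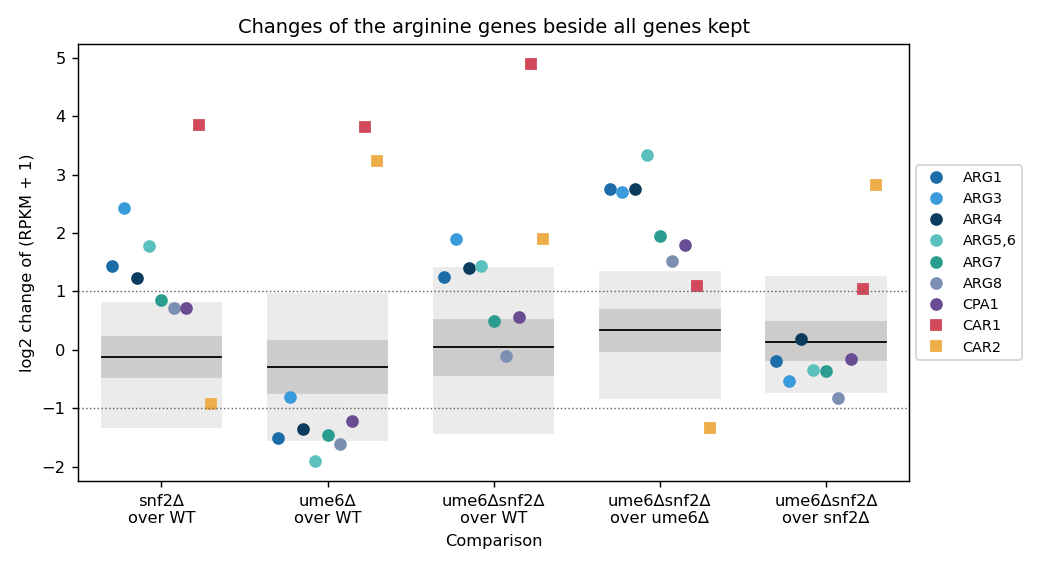
Log2 changes of (RPKM + 1) for the 9 genes in the 5 comparisons, with round points for synthesis and squares for breakdown genes, over bands from the 5th to the 95th percentile (light) and the 25th to the 75th (dark) of the 6520 genes kept, a black line at their median and dotted lines at 2-fold. The synthesis genes lie above the median in snf2∆ over WT and below it in ume6∆ over WT, and CAR1 lies above the upper band in both.

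In the double deletion library 6 of 9 genes were at least 2-fold above WT and 0 below, where 10.4% of all genes were higher and 9.97% lower. These libraries also differed in a-cell genes (63.4 against 961 RPKM summed), alpha-cell genes (8265 against 41.6), MET17 and LYS2. CAR1 had the largest ratio at 31.3 (interval 28.6 to 34.3), and CAR2 a ratio of 3.83 (interval 3.54 to 4.16). Of the synthesis genes ARG1, ARG3, ARG4 and ARG5,6 were called higher, with log2 changes of 1.25, 1.90, 1.41 and 1.43. ARG7 was at 0.49, CPA1 at 0.57 and ARG8 at -0.10. The median of the 7 was 1.25, against 0.06 for all genes. The 3 comparisons with WT share the WT library, so their values are not independent of each other.

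The double deletion against ume6∆ compares libraries without and with SNF2 where UME6 was missing from both, and shares no library with the comparison of snf2∆ and WT. This pair also differed in a-cell genes (63.4 against 889 RPKM summed), alpha-cell genes (8265 against 25.7), MET17 (2350.2 against 1.12) and LYS2 (0.385 against 91.0). All 7 synthesis genes were called higher, against 11.1% of all genes, with a median log2 change of 2.70 where that of all genes was 0.35. ARG5,6 had a ratio of 10.3 (interval 9.96 to 10.7), ARG4 of 6.81, ARG1 of 6.78, ARG3 of 6.69, ARG7 of 3.89, CPA1 of 3.48 and ARG8 of 2.92. All 7 stayed called with median ratio scaling, where 5.08% of all genes were called higher. CAR2 went the other way, at 236 and 92.7 RPKM, a ratio of 0.394 (interval 0.375 to 0.413), and it was the 1 member called lower, against 3.45% of all genes. CAR1 had a ratio of 2.13 (interval 2.07 to 2.19), which with median ratio scaling corresponded to a log2 change of 0.73, short of the call. Over both comparisons without SNF2, 4 synthesis genes were called higher each time, as were 1.7% of all genes, and CAR2 had values below 0 in each.

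The double deletion against snf2∆ compares libraries without and with UME6 where SNF2 was missing from both. These libraries also differed in MET17 and LYS2. Their summed a-cell genes were at 63.4 against 21.8 RPKM, and their alpha-cell genes at 8265 against 2819. No synthesis gene was called in either direction, their log2 changes lay between -0.82 for ARG8 and 0.18 for ARG4, and their median was -0.34 against 0.14 for all genes. Of all genes, 8.13% were called higher and 2.38% lower. CAR2 had a ratio of 7.60 (interval 6.83 to 8.48), below the 9.74 found with SNF2 present. With median ratio scaling its log2 changes were 2.67 here and 3.53 with SNF2 present. CAR1 had a ratio of 2.08 (interval 2.01 to 2.14), against 14.7 with SNF2 present, and with median ratio scaling its log2 change of 0.89 was not called.

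The change between libraries with and without a deletion differed in size for some genes according to the other gene. For libraries without SNF2 over those with it, the log2 change without UME6 minus that with UME6 was -2.76 for CAR1, and 3.91% of all genes had a difference at or below -1. CAR2 had a difference of -0.40, or -0.86 with median ratio scaling. Among synthesis genes it was 1.57 for ARG5,6, 1.53 for ARG4, 1.32 for ARG1, 1.09 for ARG7, 1.07 for CPA1, 0.80 for ARG8 and 0.28 for ARG3. A difference of at least 1 was reached by 5 of these 7 and by 21.5% of all genes, whose median was 0.48. With median ratio scaling, which moved that median to 0.04, 2 of the 7 reached it, ARG5,6 at 1.11 and ARG4 at 1.07, the CAR1 value was -3.22, and ARG3 changed sign to -0.18. Without replicates these differences were not tested.

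**Figure D4:**
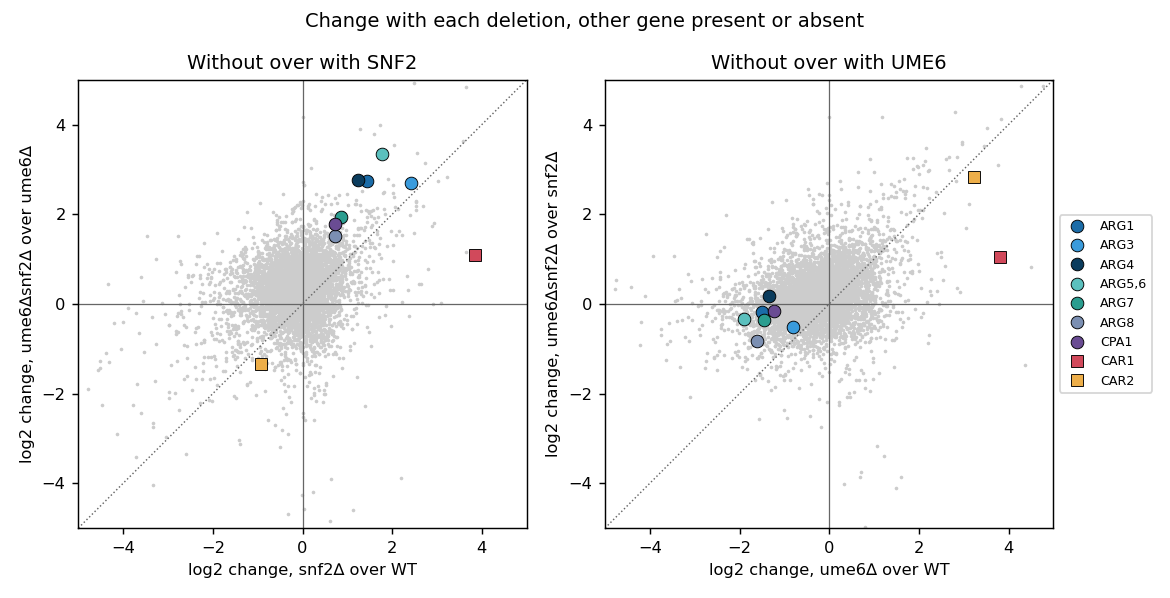
Log2 changes of (RPKM + 1) for libraries without SNF2 over those with it (left) and without UME6 over those with it (right), with the other gene present on the horizontal axis and absent on the vertical axis, for all genes kept (grey) and the 9 genes (coloured). The axes of a panel share no library, the dotted line marks equal change, and 19 genes on the left and 15 on the right lie outside the axes. CAR1 lies far below the line in both panels, CAR2 lies less far below it, and the synthesis genes lie to the left of the vertical line in the right panel with vertical values from -0.82 (ARG8) to 0.18 (ARG4).

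A pair of further genes of the route had ume6∆ lowest and snf2∆ highest, as did 6 of the 7 synthesis members and 9.62% of all genes. ARG2 makes acetylglutamate in the first step, and ORT1 carries ornithine out of the mitochondrion. ARG2 was at 30.1 RPKM in WT, 44.8 in snf2∆, 14.3 in ume6∆ and 42.7 in the double deletion, and ORT1 at 45.8, 73.0, 20.6 and 53.9. Of these, 2 of 2 were called lower in ume6∆ over WT (15.2% of all genes), and 0 of 2 reached 2-fold in snf2∆ over WT (3.31% higher and 7.96% lower). With median ratio scaling 0 of the 2 stayed called in ume6∆ over WT, where 8.36% of all genes were lower. ARG2 and the message for the enzyme it works with moved apart, since ARG5,6 was 6.33 times ARG2 in WT, 14.6 times in snf2∆, 3.51 times in ume6∆ and 12.1 times in the double deletion.

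Of the 5 regulators, GCN4 was at 1193 RPKM in WT, 1727 in snf2∆, 665 in ume6∆ and 1178 in the double deletion. It had ume6∆ lowest and snf2∆ highest, as most synthesis genes did, with smaller differences, and Gcn4 is mainly controlled in its translation, which was not measured. ARG80, a subunit of the ArgR repressor, was at 62.2, 76.7, 27.9 and 89.0 RPKM. It was the 1 regulator called, lower in ume6∆ over WT (15.2% of all genes) and higher in the double deletion over ume6∆ (11.1%). Its log2 change in ume6∆ over WT was -1.13, which median ratio scaling moved to -0.83, short of the call. ARG81, the arginine sensor, was at 46.6, 31.4, 25.5 and 40.7 RPKM. MCM1 was at 159, 85.8, 105 and 128 RPKM, and ARG82, an inositol polyphosphate kinase, at 14.1, 9.60, 12.2 and 9.08. UME6 itself was at 34.6 RPKM in WT and 19.6 in snf2∆, where CAR1 was higher and CAR2 lower than in WT.

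No gene downstream of the breakdown enzymes was called higher in all 5 comparisons, as CAR1 was, but some shared calls with it. Urea is used by DUR1,2, urea amidolyase, which was at 24.0 RPKM in WT, 76.2 in snf2∆, 19.5 in ume6∆ and 47.4 in the double deletion, and by the urea transporter DUR3, at 13.9, 8.88, 5.63 and 12.8. DUR1,2 was called higher in snf2∆ over WT (log2 change 1.62) and in the double deletion over ume6∆ (1.24). DUR3 was called lower in ume6∆ over WT (-1.17) and higher in the double deletion over ume6∆ (1.05). Of these, only the call in snf2∆ over WT stayed with median ratio scaling. PUT1, proline oxidase, was at 7.46, 5.56, 9.87 and 26.3 RPKM and was called higher in the double deletion over each other library, with the call over ume6∆ lost at 0.99 log2 units under median ratio scaling. PUT3, the activator of proline use, was at 52.0, 69.0, 122 and 116 RPKM, and was called higher in ume6∆ and in the double deletion over WT. PUT2 and PRO3 were not called in any of the 5 comparisons. PRO1 and PRO2, of proline synthesis from glutamate, were not called either. Among 4 genes for polyamines, which are made from ornithine, 0 were called in snf2∆ over WT, where 3.31% of all genes were higher and 7.96% lower. In ume6∆ over WT 1 was called lower, as were 15.2% of all genes. This was SPE1, ornithine decarboxylase, at 130.2 RPKM in WT and 64.5 in ume6∆. Its log2 change of -1.003 was at the edge of the call, and median ratio scaling moved it to -0.70, which was not called.

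Among 6 genes for arginine transport was GAP1, the general amino acid permease. GAP1 was at 12.9 RPKM in WT, 79.1 in snf2∆, 7.95 in ume6∆ and 39.7 in the double deletion. It was called higher in snf2∆ over WT and in the double deletion over WT and over ume6∆. ALP1, an arginine permease, was at 1.53 RPKM in WT, 2.08 in snf2∆, 10.5 in ume6∆ and 17.5 in the double deletion. It was called higher in ume6∆ over WT and in the double deletion over WT and over snf2∆. VBA2 was called lower in ume6∆ over WT (log2 change -1.31) and in the double deletion over snf2∆ (-1.03). CAN1, the main arginine permease, was at 116, 129, 70.4 and 114 RPKM and was not called in any comparison. Of 5 genes of glutamate and glutamine metabolism, 4 were called lower in ume6∆ over WT, or 1 with median ratio scaling. In snf2∆ over WT 2 of them were called higher, GDH1 (302 and 1009.6 RPKM) and GLN1 (999 and 2039). Over all genes, 15.2% were called lower in ume6∆ over WT, or 8.36% with median ratio scaling, and 3.31% higher in snf2∆ over WT. Pyrimidine genes, which also need carbamoyl phosphate, were called higher in snf2∆ over WT in 3 of 4 cases, with URA2 at 302 and 985 RPKM. In ume6∆ over WT 0 of these 4 were lower and 1 was higher (4.59% of all genes), URA4, at 63.9 RPKM in WT and 144 in ume6∆. Lysine synthesis, another route that Gcn4 activates, had 3 of 6 genes called higher in snf2∆ over WT and 0 of 6 called in ume6∆ over WT, with a median log2 change of 0.52 in ume6∆ where the arginine synthesis genes had -1.45. With median ratio scaling 1 of the 6 was called higher in ume6∆ over WT, as were 8.79% of all genes. The 6 leave out LYS2, kept as a strain marker, with log2 changes of 1.14 in snf2∆ over WT and -0.59 in ume6∆ over WT. HIS3, another amino acid synthesis gene kept as a strain marker, had 0.73 and -1.16 in these comparisons. It was thus called lower in ume6∆ over WT, though not with median ratio scaling, at -0.86.

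**Figure D5:**
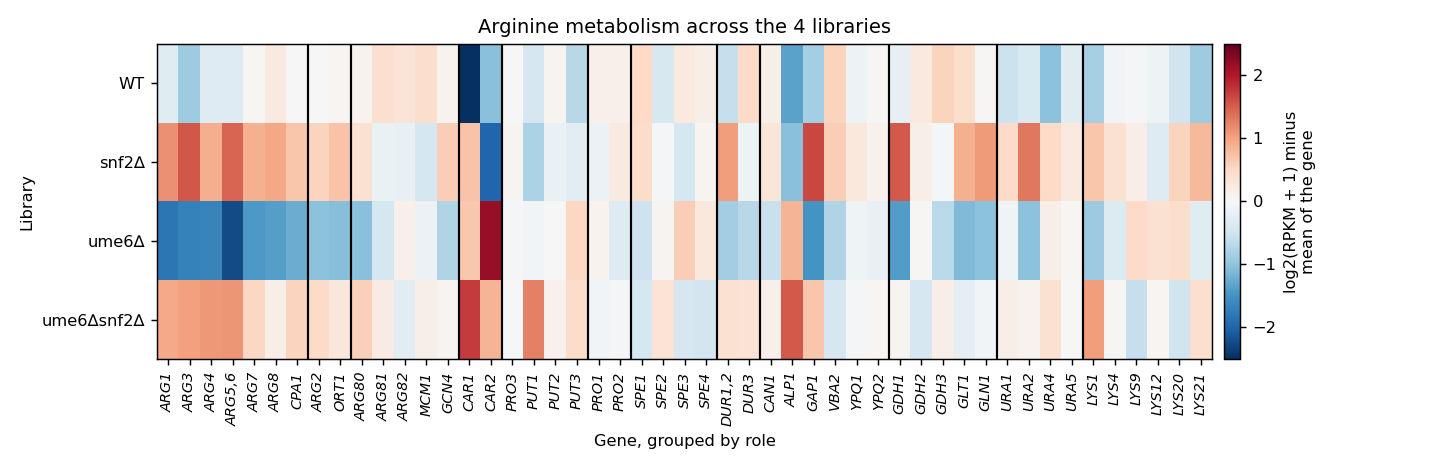
log2(RPKM + 1) minus the mean of each gene over the 4 libraries, with genes in columns and libraries in rows. Vertical lines separate, from left, the synthesis members, other synthesis genes, regulators, the breakdown pair, ornithine to glutamate, proline, polyamines, urea, transport, glutamate and glutamine, pyrimidines and lysine, and colours saturate at 2.5. The synthesis genes are blue in ume6∆ and red in snf2∆, and the breakdown pair differs from them and from each other.

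Genes with the most similar levels were sought over the 4 libraries among 5271 genes with a standard symbol and a mean of at least 10 RPKM, as the distance between log2(RPKM + 1) values centred on each gene's mean. For ARG5,6 these were RTS3 (distance 0.52 log2 units), ARG1 (0.55), ARG4 (0.78), ARG3 (0.79) and PCL5 (0.89), a cyclin that directs the turnover of Gcn4. For CAR1 they were MET6 (0.84), the methionine synthase, PRM5 (1.18), MET28 (1.40), a regulator of sulfur metabolism, GPP1 (1.51), a glycerol phosphatase, and HOT13 (1.62). MET6 was at 214 RPKM in WT, 2688 in snf2∆, 1541 in ume6∆ and 3459 in the double deletion. For CAR2 they were, at distances of 0.70 to 1.16, FIT3, a cell wall protein that retains iron, SIP4, an activator of gluconeogenic genes, ULP2, a SUMO protease, and the meiotic genes REC104 and ZIP1. No gene of the arginine synthesis list was among the nearest to CAR1 or CAR2. A distance over 4 libraries is a description of these libraries only.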

How the data were processed

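Per the labels' protocols, hot phenol was used to extract RNA, DNase removed DNA, and the TruSeq V2 kit gave the libraries. The kit does not mark strand, and 0 of the 9 genes overlap an annotated gene. The authors deposited RPKM per gene in a column for each strain. Per the submitters' processing notes, tools included CASAVA and STAR 2.4.0 and the build was sacCer3. Which tool counted the reads, and on which annotation, is not given in the sources used here. Of the rows, 3 named by 1 letter, with 0.0811% to 0.221% of summed RPKM, were left out. Of 6659 genes 5986 matched the R64 annotation, and 6520 with a mean of at least 1 RPKM were kept, all 9 members among them.

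RPKM times gene length gave whole reads, within 0.05 reads, for 99.5% to 99.6% of values above 0. Ratio intervals are exact Clopper-Pearson and level intervals exact Poisson intervals at 95%. Changes are differences of log2(RPKM + 1), called at 2-fold, computed with Python 3.11.15, pandas 2.3.3 and scipy 1.17.1 and tested on simulated data. Motifs were searched in RefSeq R64 sequence. The 9 members and all lists were chosen with earlier results of these data known. Named genes are the members, the genes of lists of 5 or fewer, the 2 largest changes of longer lists, CAN1, and the 5 nearest patterns. Of these, CAN1 was chosen after its values were seen, and so was the choice of members to set as ratios. A gene of the route is not reported here. The splicing table lists none of the members and was not used. The alternatives were pseudocounts of 0.1 and 5 RPKM, median ratio scaling, no filter or a filter at 10 RPKM, and calls at 1.5-fold and 3-fold.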

Additional observations from a re-analysis of the deposited data

Results flagged for a closer look

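ARG4 was flagged because libraries without UME6 over those with it differed in opposite directions with SNF2 present and absent. Its log2 change was -1.35 in ume6∆ over WT and 0.18 in the double deletion over snf2∆, where the value was 0.02 with median ratio scaling. Each direction rests on 1 library per strain and the difference was not tested.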

How the results depend on the processing

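Of 70 counts of called members under other settings, 61 stayed within 1.5 times the reported count. With median ratio scaling the members higher in the double deletion over snf2∆ went from 2 to 1 (6.03% of all genes), as CAR1 was no longer called. Calling at 1.5-fold gave 8 higher and 1 lower in snf2∆ over WT (9.26% and 18.9% of all genes) and 1 lower in the double deletion over snf2∆ (7.48%). Calling at 3-fold left 3 higher in snf2∆ over WT (1.24% of all genes), 2 lower in ume6∆ over WT (4.6%), 3 higher in the double deletion over WT (3.77%), 0 lower in the double deletion over ume6∆ (1.43%) and 1 higher in the double deletion over snf2∆ (2.93%). Among member changes of at least 1 log2 unit, 0 of 90 values under other pseudocounts or scaling changed direction. This outcome was fixed in advance. A pseudocount cannot reverse a change, and scaling factors of 0.857 to 1.10 could not reverse one that large. Of the 5 genes nearest to CAR2, 3 stayed with a pseudocount of 5 RPKM. No paired analysis was possible because each strain has 1 library, and no library could be left out. With 1 library per strain, variation between cultures is unknown.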
